A study of Drosophila melanogaster with 6 samples.

Results

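The genes described here encode proteins of the cytoplasmic ribosome in Drosophila melanogaster embryos. They were chosen by symbol: every probe set with exactly 1 gene symbol beginning RpL, RpS or RpLP and a digit, without RpS5a, RpS5b, RpS10a, RpS10b, RpS19a, RpS19b, RpL22, RpL22-like, RpL37-1 and RpL37-2. This gave 41 probe sets of 35 genes, out of 11982 genes with a single symbol and 18769 tested probe sets. Each gene is represented by its brightest probe set, judged by the mean of all 6 arrays. A further 47 genes with such symbols in RefSeq were not analysed here, RpS3, RpS6, RpL5 and RpL11 among them. By their names, 16 of the 35 genes belong to the large subunit, 12 to the small subunit and 3 to the P stalk, and 4 carry a name ending in -like. Of these 4, 3 are related to factors of ribosome assembly, as described below.

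Transcript levels were measured on Affymetrix 1-colour arrays hybridized with biotin-labelled RNA of pooled, dechorionated embryos, 2 to 4 h old and raised at 25 °C, with 3 arrays in each of 2 groups. Embryos of the brakeless group had mothers of the genotype FRT2R G13 bks278/FRT2R G13 ovoD1, in which recombination makes germ cells homozygous for the strong brakeless allele bks278, and fathers of the genotype FRT2R G13 bks278/CyO. Embryos of the control group had FRT2R G13/FRT2R G13 ovoD1 mothers, whose germline clones carry the unmutagenized chromosome, and FRT2R G13 fathers. All mothers thus carried the dominant female-sterile ovoD1, which blocks eggs from cells without a clone. In the brakeless group all embryos received only the mutant allele from the mother, but those that inherited CyO from the father held a zygotic copy of the normal gene, so each pool is a mixture. The labels call the 3 arrays of a group biological replicates and do not say whether they came from separate crosses.

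A ribosome joins a small subunit, which reads the mRNA, and a large subunit, which forms the peptide bond, and each is built of ribosomal RNA and a set of small proteins. The genes are among the most strongly transcribed in any growing cell, and in Drosophila the loss of one copy of many of them gives the dominant Minute phenotype of slow growth and short bristles. The mother loads ribosomes and the mRNAs of ribosomal proteins into the egg, so in an embryo of this age much of the measured RNA is maternal. Brakeless, encoded by sbb on chromosome arm 2R, is a nuclear co-regulator of transcription, and the comparison asks which transcripts depend on it.

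Brakeless and control embryos did not differ detectably in any of the 35 ribosomal protein genes. The differences, brakeless minus control on the log2 scale, ran from -0.39 for RpL24-like to 0.27 for RpL28 with a median of -0.013, against a median of -0.0070 over all genes. Without the 4 -like genes the lowest was -0.18. None of the 35 passed limma's test after Benjamini-Hochberg adjustment over all probe sets (smallest adjusted p = 0.998), and 0 of the 35 had an unadjusted p under 0.05. Over all genes 0.184% were called and 6.16% had an unadjusted p under 0.05. The difference was smaller than 0.2 in 33 of the 35 genes and in 61.2% of all genes. In pooled embryos, fewer cells of a type and less RNA per cell cannot be told apart.

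The intervals show the range of differences in the deposited values that goes with the spread between these arrays. They do not bound the change in transcript level, since differences between bright probe sets can be compressed, as described below. The 95% interval of the difference held 0 in all 35 genes, lay wholly within 0.5 of 0 in 26 of them, and reached a 2-fold change in 0. Among all genes the interval lay within 0.5 of 0 in 38.1% and reached a 2-fold change in 26.0%. The 9 ribosomal protein genes whose intervals passed 0.5 were RpL24-like, RpL7-like, RpLP0-like, RpS28-like, RpS30, RpS21, RpL15, RpL10Aa and RpL28. The outermost bounds were -0.83, in RpL24-like, and 0.82, in RpL7-like.

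**Figure D1:**
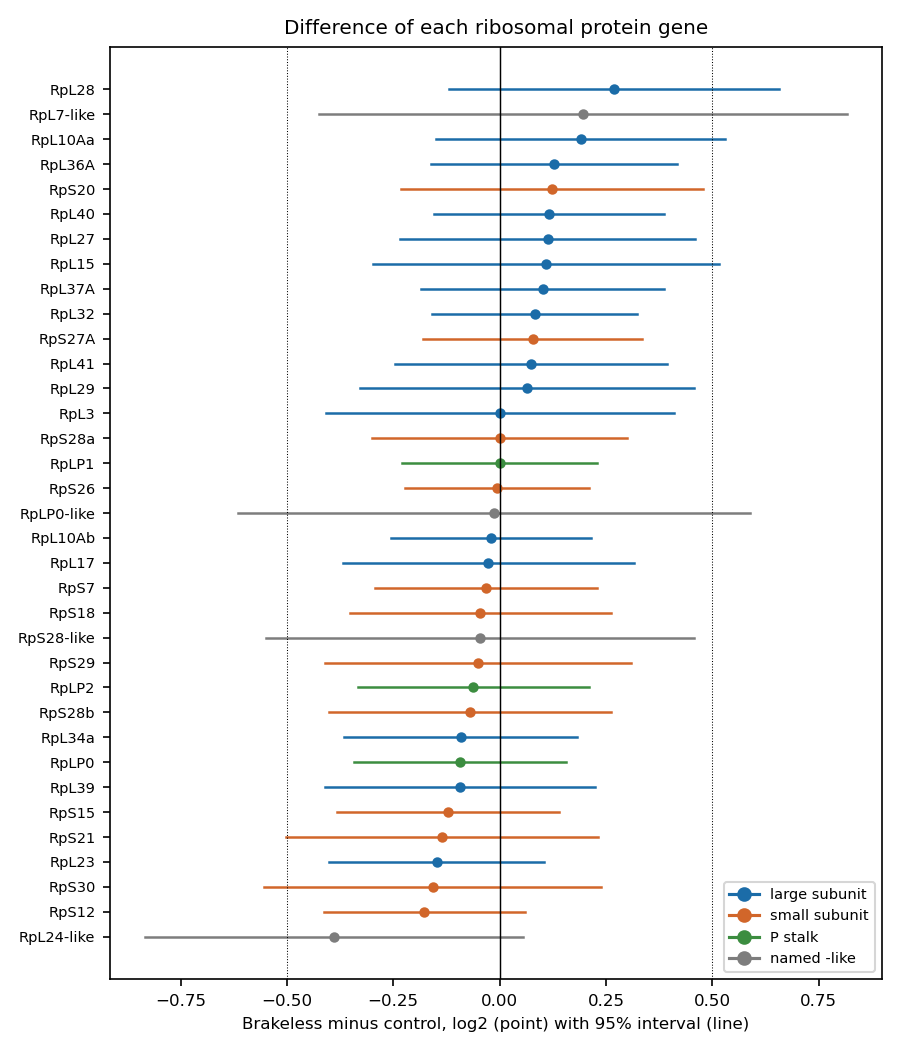
Log2 difference between brakeless and control embryos for each of the 35 genes (point), with its 95% interval from limma (line) and dotted lines at 0.5 on either side of 0. Colours mark large subunit, small subunit, P stalk and -like genes; every line crosses 0, and 26 stay between the dotted lines.

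The levels bear on how these differences can be read. The mean log2 level was 12 or higher in 30 of the 35 genes, against 128 of all 11982 genes and 203 of all 18769 tested probe sets. The highest value of any tested probe set was between 14.31 and 14.35 on each array. Array signal flattens near the top of its scale, and the quantile step of RMA, the authors' normalization, pulls the brightest probe sets of all arrays toward the same values. Differences between such bright probe sets can therefore be compressed, and the files give no saturation flags. The signals of different probe sets do not rank the abundance of different transcripts. The dimmest members were RpS28-like with a mean of 3.11, RpL10Aa with 3.61 and RpS28a with 4.38, close to the median of all tested probe sets on the 6 arrays (3.59 to 3.73), so their transcripts were not shown to be present. RpS28a and RpL10Aa are second copies of RpS28b (mean 13.87) and RpL10Ab (13.98), and probes of such copies can share RNA.

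Spread between arrays was small. The within-group SD had a median of 0.145 over the 35 genes, against 0.229 over all genes. In the 98 genes at a mean of 12 or higher that are not among the 35, it was 0.256, a comparison chosen after the values were seen. Their median level was 12.29 against 13.71 in the 35 genes, so the 2 sets are not matched on level. All genes had a median level of 4.89, so they are not matched either. The part of signal compression in these SDs was not tested. Over all 203 probe sets at 12 or higher, members included, the median SD was 0.174. RpS26, a protein at the channel where mRNA leaves the small subunit, varied least: the brakeless arrays read 13.93, 13.93 and 13.94, and the control arrays 13.91, 13.94 and 13.96, a range of 0.055. The range over the 6 arrays was under 0.5 in 28 of the 35 genes, and in 37.6% of all genes.

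Among small-subunit genes, RpS12, which in Drosophila is needed to signal a ribosomal protein deficit through the transcription factor Xrp1, was the gene with separate groups. The brakeless arrays read 13.42, 13.40 and 13.41, and the control arrays 13.60, 13.49 and 13.67. All brakeless arrays lay below all control arrays, by a mean of -0.18 (SE 0.097, 95% interval -0.41 to 0.060), which did not pass the test (limma adjusted p = 0.998, unadjusted p = 0.117). Groups that do not overlap were found in this 1 of 35 genes and in 11.2% of all genes, 6.4% with the brakeless arrays lower. After centring the arrays it was 5 of 35 genes against 11.9% of all genes, and after quantile normalization applied again 4 of 35 against 11.8%, with RpS12 lower in both. With single arrays left out, where fewer arrays separate more often, the count was 4 without brakeless replicate 1, 2 without brakeless replicate 2 and 4 without brakeless replicate 3. It was 5, 8 and 4 without control replicates 1, 2 and 3, while 16.9% to 25.5% of all genes separated in these settings.

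The other small-subunit genes with the most negative differences were RpS30, made as a fusion with a ubiquitin-like protein, RpS21 and RpS15. RpS30 read 13.12, 13.31 and 13.41 in brakeless and 13.48, 13.16 and 13.66 in control embryos, a difference of -0.16 (interval -0.55 to 0.24) with overlapping groups. RpS21, whose mutants in Drosophila overgrow the larval blood organ, read 13.15, 13.56 and 13.55 against 13.63, 13.43 and 13.61, a difference of -0.14 (interval -0.50 to 0.23). Brakeless replicate 1 was its low array, and without that array its difference was -0.00066. RpS15 read 13.73, 13.65 and 13.76 against 13.92, 13.70 and 13.88, a difference of -0.12 (interval -0.38 to 0.14). The most positive was RpS20 at 0.12 (interval -0.23 to 0.48), where control replicate 3, at 13.39, lay below the other 5 arrays (13.69 to 13.85); without it the difference was -0.0086. The remaining 7 genes, RpS7, RpS18, RpS26, RpS27A, RpS28a, RpS28b and RpS29, had differences between -0.069 and 0.077.

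**Figure D2:**
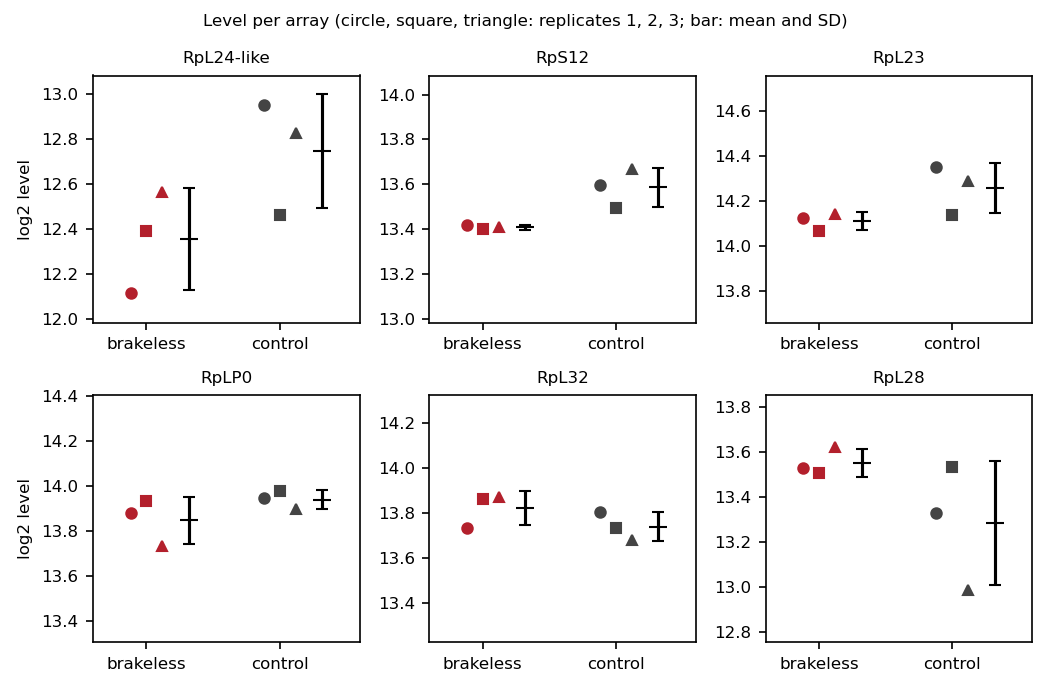
Log2 level on each array for 6 genes, with circles, squares and triangles for replicates 1, 2 and 3 and bars for the mean and SD of 3 arrays; all panels span the same range. RpS12 alone has all brakeless arrays (13.40 to 13.42) below all control arrays (13.49 to 13.67), and control replicate 3 is the low array of RpL28, at 12.99.

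Large-subunit genes had mostly positive differences, and all their 95% intervals held 0. RpL28, a protein that the budding yeast ribosome lacks, read 13.53, 13.50 and 13.62 in brakeless and 13.33, 13.53 and 12.99 in control embryos. Its difference of 0.27 (SE 0.16, interval -0.12 to 0.66, limma adjusted p = 0.998) was the most positive of the 35, and without control replicate 3, its lowest array, it was 0.12. RpL36A read 13.89, 13.96 and 14.04 against 13.98, 13.85 and 13.67, a difference of 0.13 (interval -0.16 to 0.42). RpL40, which is made as a fusion with ubiquitin, read 13.40, 13.47 and 13.51 against 13.47, 13.35 and 13.21, a difference of 0.12 (interval -0.16 to 0.39). In both genes control replicate 3 was the lowest array and the groups overlapped. RpL27 and RpL15 stood at 0.11 each, also with control replicate 3 lowest, at 12.95 and 13.53. The dim RpL10Aa stood at 0.19 (interval -0.15 to 0.53).

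RpL32, long used as a reference transcript under the name rp49, read 13.74, 13.86 and 13.87 in brakeless and 13.81, 13.73 and 13.68 in control embryos. The groups overlapped, and the difference of 0.08 (SE 0.099) had an interval from -0.16 to 0.32, which is 0.895-fold to 1.25-fold. The lowest large-subunit values were those of RpL23, which faces the small subunit and is where the initiation factor eIF6 binds, and RpL39, which lines the exit tunnel. RpL23 read 14.12, 14.07 and 14.14 against 14.35, 14.14 and 14.29, a difference of -0.15 (interval -0.40 to 0.10). Its mean of 14.18 was the highest of the 35, and on control replicate 1 it stood at the top of that array's values. The size of its difference may therefore be compressed. RpL39 read 13.71, 13.96 and 14.05 against 14.11, 13.89 and 14.00, a difference of -0.094 (interval -0.41 to 0.22). The other 7 large-subunit genes, RpL3, RpL10Ab, RpL17, RpL29, RpL34a, RpL37A and RpL41, had differences between -0.091 and 0.10.

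The P stalk recruits the elongation factors that drive the ribosome along the mRNA, and its genes had the narrowest intervals of the classes (median width 0.498). They were also the brightest class, with a median level of 14.17, where differences can be compressed. RpLP0, the base of the stalk, read 13.88, 13.93 and 13.73 in brakeless and 13.94, 13.98 and 13.89 in control embryos, a difference of -0.092 (interval -0.34 to 0.16). RpLP1 read 14.12, 14.24 and 14.18 against 14.15, 14.17 and 14.21, a difference of -0.00034 with an interval from -0.23 to 0.23. RpLP2 read 14.04, 14.19 and 14.18 against 14.33, 14.09 and 14.18, a difference of -0.062 (interval -0.33 to 0.21). The groups overlapped in all 3 genes.

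The 4 genes with names ending in -like met the rule, but by their yeast relatives 3 of them are assembly factors rather than ribosome components. RpL24-like is related to yeast Rlp24, which holds the place of RpL24 on the immature large subunit, RpL7-like to yeast Rlp7, and RpLP0-like to yeast Mrt4. RpL24-like read 12.11, 12.39 and 12.56 in brakeless and 12.95, 12.46 and 12.83 in control embryos. Brakeless replicate 3 lay above control replicate 2, and the difference of -0.39 (SE 0.18, interval -0.83 to 0.054) missed the threshold (limma adjusted p = 0.998), although its unadjusted p of 0.0754 was the smallest of the 35. RpL7-like read 10.60, 10.91 and 11.22 against 11.00, 10.89 and 10.25, a difference of 0.20 (interval -0.42 to 0.82). RpLP0-like read 8.64, 8.97 and 9.22 against 9.19, 8.50 and 9.18, a difference of -0.013 (interval -0.61 to 0.59). RpS28-like, near the floor of the scale, differed by -0.047 (interval -0.55 to 0.46). These 4 had a median SD of 0.314, and 0 of their intervals lay within 0.5 of 0, against 26 of the other 31.

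Signs differed between the classes. Of the 12 small-subunit genes 10 were negative, with a median of -0.048, and of the 16 large-subunit genes 11 were positive, with a median of 0.078, where 51.4% of all genes were negative. The P stalk belongs to the large subunit too, and its 3 genes were negative, so with them 11 of 19 were positive and the median was 0.065. Members share arrays and are no replicates of each other, so these counts carry no test. The medians of the 16 and the 12 genes kept these signs under 9 other settings that can alter a difference. They ran from 0.027 to 0.16 for the large subunit and from -0.13 to -0.0027 for the small one. A further setting, the mean of all probe sets of a gene, was not examined by subunit. The count of negative small-subunit genes was 7 with quantile normalization applied again and also when brakeless replicate 1, control replicate 1 or control replicate 3 was left out, and 8 with centring or array weights.

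Control replicate 3 was the array on which the subunits parted most. Large-subunit genes lay at a median of -0.089 from their own means there and small-subunit genes at 0.10. It was the lowest of the 6 arrays for 8 of 16 large-subunit genes and the highest for 5 of 12 small-subunit genes. On the other 5 arrays the medians of both subunits lay at most 0.074 apart. The same array stood apart over the whole table, with a mean correlation of 0.964 with the other arrays, which had 0.979 to 0.986. Without it the large-subunit median went from 0.078 to 0.027, with 11 of 16 still positive, and the small-subunit median moved from -0.048 to -0.020.

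**Figure D3:**
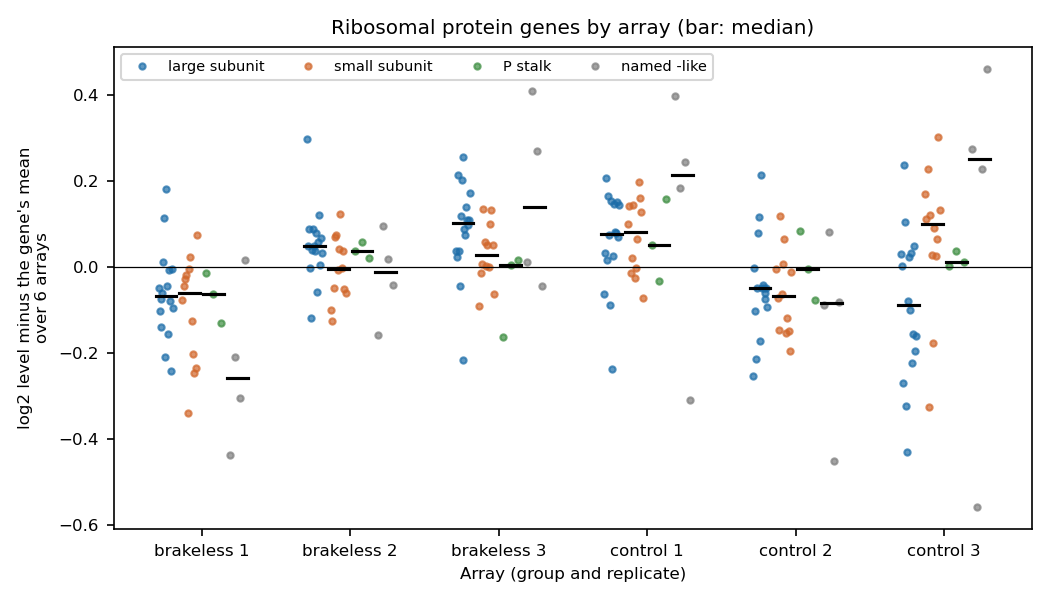
Log2 level of each gene on each array minus the gene's mean over the 6 arrays, by subunit, with black bars for the median of each class. Brakeless replicate 1 and control replicate 2 lie low for most genes, and on control replicate 3 the large-subunit bar (-0.089) lies below the small-subunit bar (0.10).

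Apart from that split, the genes moved together by array more than by group. On brakeless replicate 1, 29 of the 35 lay below their own mean, and on control replicate 2, 27 did. The median deviations were -0.075, 0.037 and 0.051 on brakeless replicates 1 to 3 and 0.080, -0.061 and 0.029 on control replicates 1 to 3. Over all genes they lay between -0.020 and 0.015 on 5 arrays and at 0.066 on control replicate 3. The 69 mitochondrial ribosomal protein genes deviated by -0.28, 0.077 and 0.13 on the brakeless arrays and by 0.22, -0.20 and 0.16 on the control arrays, with the same arrays low. The 9 probe sets for hybridization controls, RNAs added to the sample before hybridization, deviated by -1.31, 0.26 and 1.18 on the brakeless arrays and by 0.46, -0.34 and -0.30 on the control arrays. Brakeless replicate 1 was thus the lowest array for all 3 sets, and the part of the hybridization in the levels of ribosomal protein genes was not tested.

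The array checks for tissue and RNA quality are given here once. Blastoderm and gastrula genes had median levels of 6.62 to 8.03 on the 6 arrays, while 5 measured eggshell genes had group means between 2.78 and 4.70. The 5 late muscle genes, a mark of older embryos, ranged in median level from 3.94 on brakeless replicate 1 to 5.80 on control replicate 2. All 5 were lower in value in brakeless embryos, with a median difference of -0.67, which was -1.29 without control replicate 3. Of 7 maternal transcripts that embryos clear, 5 were higher in value, with a median of 0.51, which was 0.086 without that array. The 8 blastoderm and gastrula genes had a median difference of -0.055 with 4 negative. Without that array it was -0.42 with 8 negative. With all arrays, groups did not overlap in 2 of the 8, against 11.2% of all genes. These were Sry-alpha at -1.03 (limma adjusted p = 0.114) and nullo at -0.63 (limma adjusted p = 0.998), while the highest of the list was Kr at 0.35. No gene of these 3 lists passed the test, and the part of embryo stage in the differences of ribosomal protein genes was not tested. The log2 difference between the 3' and 5' actin controls was 1.29 to 1.82. The targeted gene sbb read 4.80 ± 0.47 (SD, n = 3) in brakeless and 6.26 ± 0.39 in control embryos on its brightest probe set, a difference of -1.46 (limma adjusted p = 0.320). Its other probe sets, near the floor of the scale, differed by 0.081 and 0.11 (limma adjusted p = 0.998 for each).

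The bks278 allele lies on arm 2R, as does the FRT site that both groups carried. Only the brakeless crosses held CyO, also a chromosome 2. The 8 ribosomal protein genes on 2R were therefore examined separately. Of these, 6 were negative, with a median of -0.054, against 15 of 27 negative and a median of -0.00034 on the other arms. Those 27 include 9 genes on 2L, the other arm of chromosome 2, where 4 were negative, with a median of 0.077. RpL23, RpL29, RpLP2, RpS15 and RpS18 lie within 5 Mb of sbb. Of these 5 genes, 4 were negative, at -0.15 for RpL23, -0.12 for RpS15, -0.062 for RpLP2 and -0.045 for RpS18. RpL29 was positive at 0.065, reading 13.32, 13.58 and 13.78 against 13.68, 13.35 and 13.45. RpS18 read 13.82, 13.80 and 13.85 against 13.83, 13.70 and 14.08. All 5 intervals lay within 0.5 of 0, and the groups overlapped in all 5. Over the 1162 genes of that window 49.7% were negative, with a median of 0.0024.

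Where a gene had more than one probe set, the readings did not add a change. RpL3, RpS7, RpS29 and RpS30 had 6 further probe sets. RpS29 had a second bright probe set, at 0.0089 where the brightest gave -0.051, and a dim one at -0.12. The second probe set of RpS30, with a mean of 8.64, gave -0.035 where the brightest gave -0.16. RpS7 gave -0.51 (interval -1.26 to 0.24) on a dim probe set with a mean of 4.92, and -0.032 (interval -0.29 to 0.23) on the bright one. The further probe sets of RpL3 gave 0.036 and -0.077. Of the 35 genes, 14 were read by probe sets ending in _s_at, a suffix that Affymetrix uses for probes shared between transcripts. Their median difference was -0.0027, that of the 18 genes on probe sets ending in _at was -0.0066, and the 3 genes on probe sets ending in _a_at, RpS15, RpL34a and RpL10Ab, were all negative with a median of -0.091.

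Of the 10 ribosomal protein paralogs that the rule leaves out, 6 were measured, and 0 of them passed the test. For RpS10a the brakeless arrays read 4.64, 4.77 and 8.48 and the control arrays 12.40, 11.45 and 12.22, which differ by -6.06 (SE 1.06, interval -8.64 to -3.48), with separate groups but an adjusted p of 0.206 (limma). Since 2 of its brakeless arrays read near the dim members named above, the size of this difference may be understated. Groups did not overlap in 2 of the 6 paralogs, RpS10a and RpL22-like, against 11.2% of all genes. RpL22-like differed by -1.51 (interval -2.39 to -0.64, limma adjusted p = 0.465), RpS19b by -0.86 and RpL37-2 by -0.82 (limma adjusted p = 0.998 and 0.885), while RpS5b and RpL37-1, with mean levels of 14.07 and 13.22, differed by -0.079 and 0.16. The 95% interval of RpS10a lay below the intervals of all 35 genes, the lowest of which began at -0.83.

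**Figure D4:**
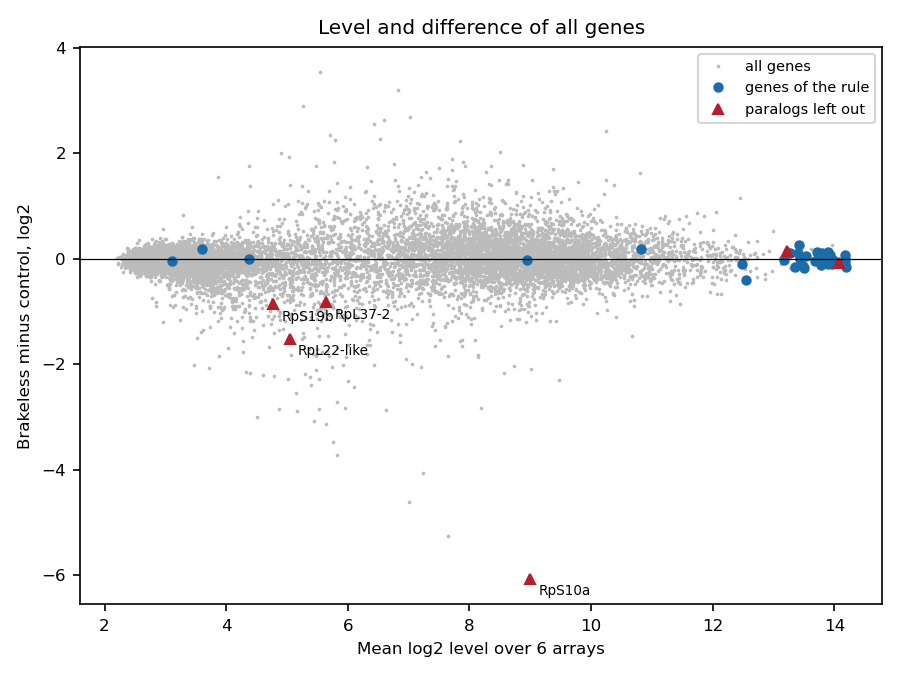
Mean log2 level over 6 arrays and log2 difference between brakeless and control embryos for 11982 genes (grey), the 35 genes of the rule (blue circles) and 6 paralogs left out by it (red triangles). The blue circles lie between -0.39 and 0.27, 30 of them at a level of 12 or higher, and RpS10a lies at -6.06.

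Other genes of translation were taken from lists, and none of their members passed the test. Mitochondrial ribosomal protein genes had a median of -0.072 with 46 of 69 negative, against 51.4% of all genes. Without control replicate 3 their median was -0.019 with 41 negative. Their values ran from mRpL11 and mRpL27 at -0.64 and -0.48 to mRpL55 and mRpS5 at 0.49 and 1.23. On mRpS5 control replicate 3 read 8.21 against 9.72 to 10.99 on the other arrays, and without that array the difference was 0.54. Of these 69 genes, 16 had intervals within 0.5 of 0 (23.2%), and their median SD was 0.276. The 40 initiation factors, which bring the ribosome to the mRNA, had a median of 0.013, and 4 of them (against 6.16% of all genes) had an unadjusted p under 0.05. Groups did not overlap in 6 of the 40, against 11.2% of all genes. Their lowest values were those of eIF4E3, a cap-binding protein known from the Drosophila testis, and eIF2D. For eIF4E3 the brakeless arrays read 3.80, 3.67 and 4.75, all below the control arrays at 7.35, 6.60 and 7.67; the difference was -3.13 (SE 0.39), with a limma adjusted p of 0.0715. Of its brakeless arrays 2 read close to the array medians, so this size may be understated too. eIF2D stood at -0.75. The highest were eIF4G1 and eIF4B at 1.29 and 1.35, with intervals from -1.40 to 3.99 and from -1.63 to 4.33. Both were lowest on control replicate 3, at 6.11 against 9.65 to 10.48 and at 5.92 against 9.93 to 10.67, and without that array they stood at -0.028 and -0.11. The 6 elongation and release factors had a median of 0.17 (-0.029 without control replicate 3) and ran from eEF1alpha2 and eEF1gamma at -0.47 and -0.18 to eEF1delta and eRF3 at 0.22 and 0.35. The dim eEF1alpha2 had means of 3.81 in brakeless and 4.28 in control embryos, so its transcript was not shown to be present. Its groups did not overlap (limma adjusted p = 0.793), as in 1 of the 6 genes and 11.2% of all genes.

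The makers and regulators of ribosomes showed no call either. The 20 genes of ribosome biogenesis and RNA polymerase I had a median of 0.086. Their lowest members were vito, a nucleolar protein, at -1.16 (limma adjusted p = 0.310) and Surf6 at -0.59, and their highest were Polr1B, an RNA polymerase I subunit, at 0.65 (limma adjusted p = 0.686) and Tif-IA, its initiation factor, at 0.77. Groups did not overlap in 3 of the 20, vito, Polr1B and RIOK2 (0.33), against 11.2% of all genes. The 10 regulators had a median of 0.29, which was -0.26 without control replicate 3, where they deviated by a median of -1.06. Their values ran from Irbp18, the partner of Xrp1, at -0.47 and M1BP, which binds promoters of ribosomal protein genes, at -0.34 to Trf2, a TBP relative used at those promoters, at 1.01 and larp, which binds mRNAs of ribosomal proteins, at 1.27. larp read 2.62 on control replicate 3 and 6.39 to 7.81 on the other arrays, and its interval ran from -1.91 to 4.46. Trf2 and Tif-IA were lowest on the same array, and without it larp, Trf2 and Tif-IA stood at -0.24, 0.10 and 0.028.

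**Figure D5:**
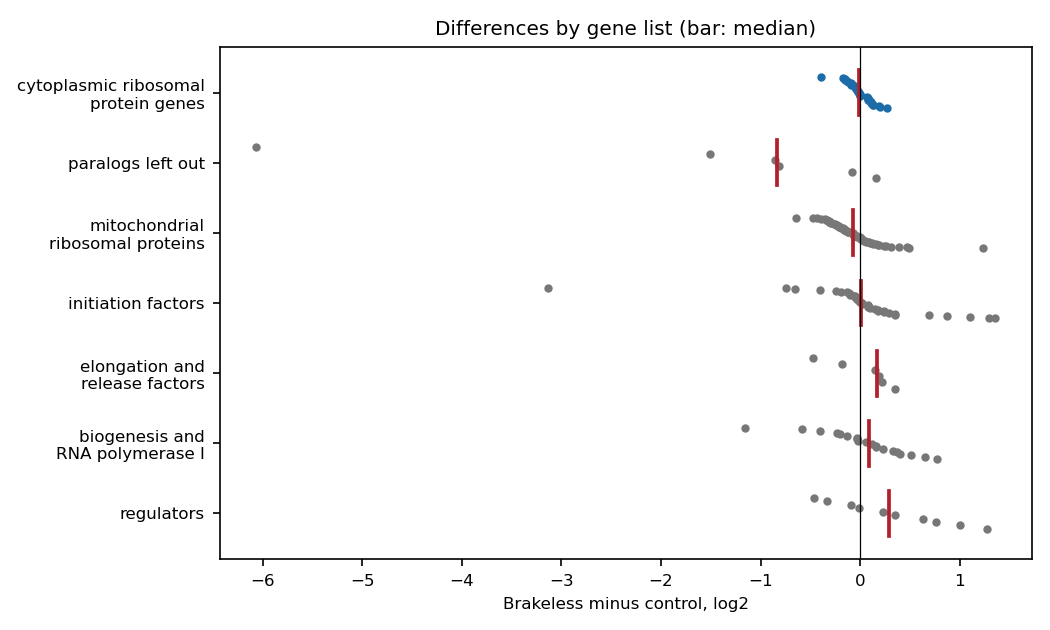
Log2 difference between brakeless and control embryos for each gene of 7 lists (points), with red bars for the medians. The 35 cytoplasmic ribosomal protein genes span -0.39 to 0.27; the paralogs left out span -6.06 to 0.16 and the initiation factors -3.13 to 1.35.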

How the data were processed

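The deposited values are log2 signals that the authors made with RMA, per the submitters' processing notes, with version and settings not stated there. RMA subtracts a background, equalizes the arrays' probe distributions and summarizes each probe set, so a change in total RNA per embryo is hidden. Precision is set by the number of arrays, since there are no reads to count. Of 18952 probe sets, 183 controls were left out of the tests. Symbols came from the platform annotation, and chromosome arms from RefSeq (Release 6 plus ISO1 MT), where all 35 symbols matched by gene number.

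Brakeless and control arrays entered a single fit in limma 3.58.1, R 4.3.3 (lmFit, eBayes, all 6 arrays, no covariate, two-sided), with Benjamini-Hochberg adjustment over 18769 probe sets and a threshold of 0.05; limma's prior held 2.05 degrees of freedom. Intervals are 95% intervals of that fit. The step was tested on simulated data. Lists, subunits and arms are described by counts and medians, with no test. Figures were drawn with matplotlib 3.10.9.

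Genes named were the 8 most positive and 8 most negative differences, the 4 smallest unadjusted p, any call, RpL32, RpS12 (RpS3, RpS6, RpL5 and RpL11, also in the rule, were not analysed here) and the P stalk, -like genes, and those within 5 Mb of sbb. For other lists they were the 2 extremes on each side. Others were chosen after their values were seen. The members and lists were chosen with earlier results of these data known. P-values measure only the spread between these arrays, which may be technical. Promoter motifs were not analysed here.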

Additional observations from a re-analysis of the deposited data

How the results depend on the processing

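No ribosomal protein gene was called in any of the 16 alternatives, and the median difference of the 35 genes stayed between -0.046 and 0.026, so its sign is not settled. At an unadjusted p under 0.05, 1 gene passed with array weights and 1 with quantile normalization applied again, RpL24-like in both cases, and 0 to 2 with single arrays left out (RpL24-like and RpL28 without control replicate 2). Groups did not overlap in 5 genes after centring (11.9% of all genes), in 4 after quantile normalization again (11.8%) and in 2 to 8 with single arrays left out. Intervals within 0.5 of 0 numbered 14 with the replicate number as a block, which leaves fewer residual degrees of freedom; the setting without dim members and the interval count as such were added after the data were seen. Over all 35 genes, 5 signs turned with array weights, 5 with centring and 4 with quantile normalization again, all in genes whose difference lay within 0.047 of 0, and 18 genes turned under at least 1 setting. Among the 23 genes of the naming rule, signs turned with array weights for RpLP1 (0.039) and RpS28-like (0.093), with centring for RpLP1 (0.026) and RpLP0-like (0.013), and with quantile normalization again for RpLP1 (0.0084). With single arrays left out, differences ran from -0.17 to 0.0044 for RpL39, -0.24 to 0.14 for RpLP0-like, -0.029 to 0.031 for RpLP1, -0.047 to 0.19 for RpL29, -0.12 to 0.0013 for RpLP2, -0.021 to 0.18 for RpL27, -0.035 to 0.35 for RpL7-like, -0.13 to 0.057 for RpS18, -0.0086 to 0.21 for RpS20 and -0.21 to 0.17 for RpS28-like. The other 13 of these 23 genes kept their signs. Over the whole table, where 26 probe sets were called, 46 were called with trend and robust, 74 with array weights and 0 with the replicate block. Leaving out single arrays gave 0 to 33 calls. The count was 33 without control replicate 3, 8 with control replicate 1 dropped, 6 with brakeless replicate 3 dropped and 0 for each of the other 3 arrays (brakeless replicates 1 and 2, control replicate 2). The causes were not tested. Deviations of same-numbered arrays from their group means had correlations of -0.40, -0.23 and -0.32. Those of the other combinations ran from -0.29 to 0.55 (brakeless replicate 3 with control replicate 1). Deviations of 3 arrays from their own mean are tied to each other, so these values cannot show whether the numbers pair the arrays.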
